A study of Mus musculus with 9 samples.

Results

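The genes described are those of the constitutive proteasome and its regulators, 49 of the 12474 gene rows measured. They were taken by symbol: every gene named Psma, Psmb, Psmc, Psmd, Psme, Psmf or Psmg with a number, without the immunoproteasome genes Psmb8, Psmb9 and Psmb10. RNA was sequenced from RAW264.7 cells, a mouse macrophage-like line labelled wild type, in 3 groups of 3 libraries. I cells were polarized to the M1 state with 100 ng/ml lipopolysaccharide (LPS) plus 50 ng/ml mouse interferon gamma, in the presence of 20 mM potassium iodide. M1 cells received the same LPS and interferon gamma without potassium iodide. Mock cells received neither. All 3 groups are this single cell line in medium with serum. No group had another salt, so the part of iodide cannot be told apart from that of potassium or osmolarity, nor can LPS be told from interferon gamma, since both were given together. Whether replicate libraries stem from separate cultures is not stated in the labels, so each p-value rests on a spread between libraries that may be technical.

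The proteasome degrades proteins that carry ubiquitin chains. Its core particle is a stack of rings of alpha subunits (Psma genes), which gate the entry, and of beta subunits (Psmb genes), of which Psmb5, Psmb6 and Psmb7 carry the proteolytic sites. A regulatory particle, with a base of ATPases (Psmc genes) and non-ATPase subunits and a lid (Psmd genes), binds, unfolds and feeds in substrates, and other activators (Psme genes) can cap the core instead. In cells exposed to interferon gamma the catalytic beta subunits can be replaced by Psmb8, Psmb9 and Psmb10, which favours peptides for display to T cells.

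Levels are FPKM, fragments scaled by summed exon length and by library total. They can be set side by side between genes only as far as that length fits the transcripts made. The library totals recovered from the values were 17431070 to 25470730 fragments. The 49 genes held 11 (Psmc3ip) to 15430 (Psmd8) fragments in a library. All 49 passed the filter on low values, as did 11156 of all 12474 rows. Every one of the 12474 rows, and so each of the 49, has a value above 0 in every library. The 9 macrophage markers listed were all in the files, and their summed level was 2430 to 2544 FPKM in I, 3328 to 3439 FPKM in M1 and 4692 to 4781 FPKM in Mock libraries. None of the 15 markers of T cells, B cells, neutrophils, fibroblasts and epithelial cells was in the files. Since no row holds a 0 in any library, this absence does not show that a marker was unexpressed in all of them. Of the 8 macrophage markers that passed the filter, 4 were called higher (Adgre1, Cd14, Cd68 and Itgam) and 4 lower (Csf1r, Fcgr1, Lyz2 and Spi1) in M1 vs Mock, and 1 higher (Csf1r) and 7 lower in I vs M1, while Mertk was below the filter. The part of these marker differences in the results was not tested. In bulk RNA, fewer cells of a type and less RNA per cell cannot be told apart.

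On polarization as many of the proteasome genes rose as fell, and with iodide most of them were lower than in M1 cells. In M1 vs Mock cells 22 of the 49 genes rose and 22 fell, in a comparison in which 30.5% of all 11156 genes tested rose and 55.3% fell (85.8% called). With iodide (I vs M1) 41 genes fell and only Psme4 rose, against 39.3% of all genes lower and 24.9% higher (64.2% called). Calls are at an adjusted p under 0.05 from limma, and fold changes are differences of log2(FPKM + 1), which understate the change of low genes. The median log2 fold change over the 49 genes was 0.04 in M1 vs Mock, against -0.23 over all genes, and -0.28 in I vs M1, against -0.07 over all genes. These comparisons share the M1 libraries, so a high M1 value raises the first and lowers the second.

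The scaling between libraries bears on the M1 vs Mock counts. Median-of-ratios (RLE) scaling moved the median of all genes in that comparison from -0.23 to 0.01. It gave 33 of the 49 genes higher and 14 lower, beside 4810 higher and 4749 lower over all genes. Quantile scaling gave 23 higher and 19 lower, beside 4697 higher and 4788 lower over all genes. Both scalings left 36 of the 49 genes lower and 1 higher in I vs M1. RLE scaling raised the log2 fold changes of the 49 genes by 0.19 to 0.30 in M1 vs Mock and by 0.015 to 0.075 in I vs M1. With it 32 of them in M1 vs Mock and 17 in I vs M1 moved by more than 1.5 times or changed sign, and with quantile scaling 18 and 19. Over all genes in I vs M1, RLE scaling gave 3478 higher and 3540 lower, and quantile scaling 3364 higher and 3610 lower.

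**Figure D1:**
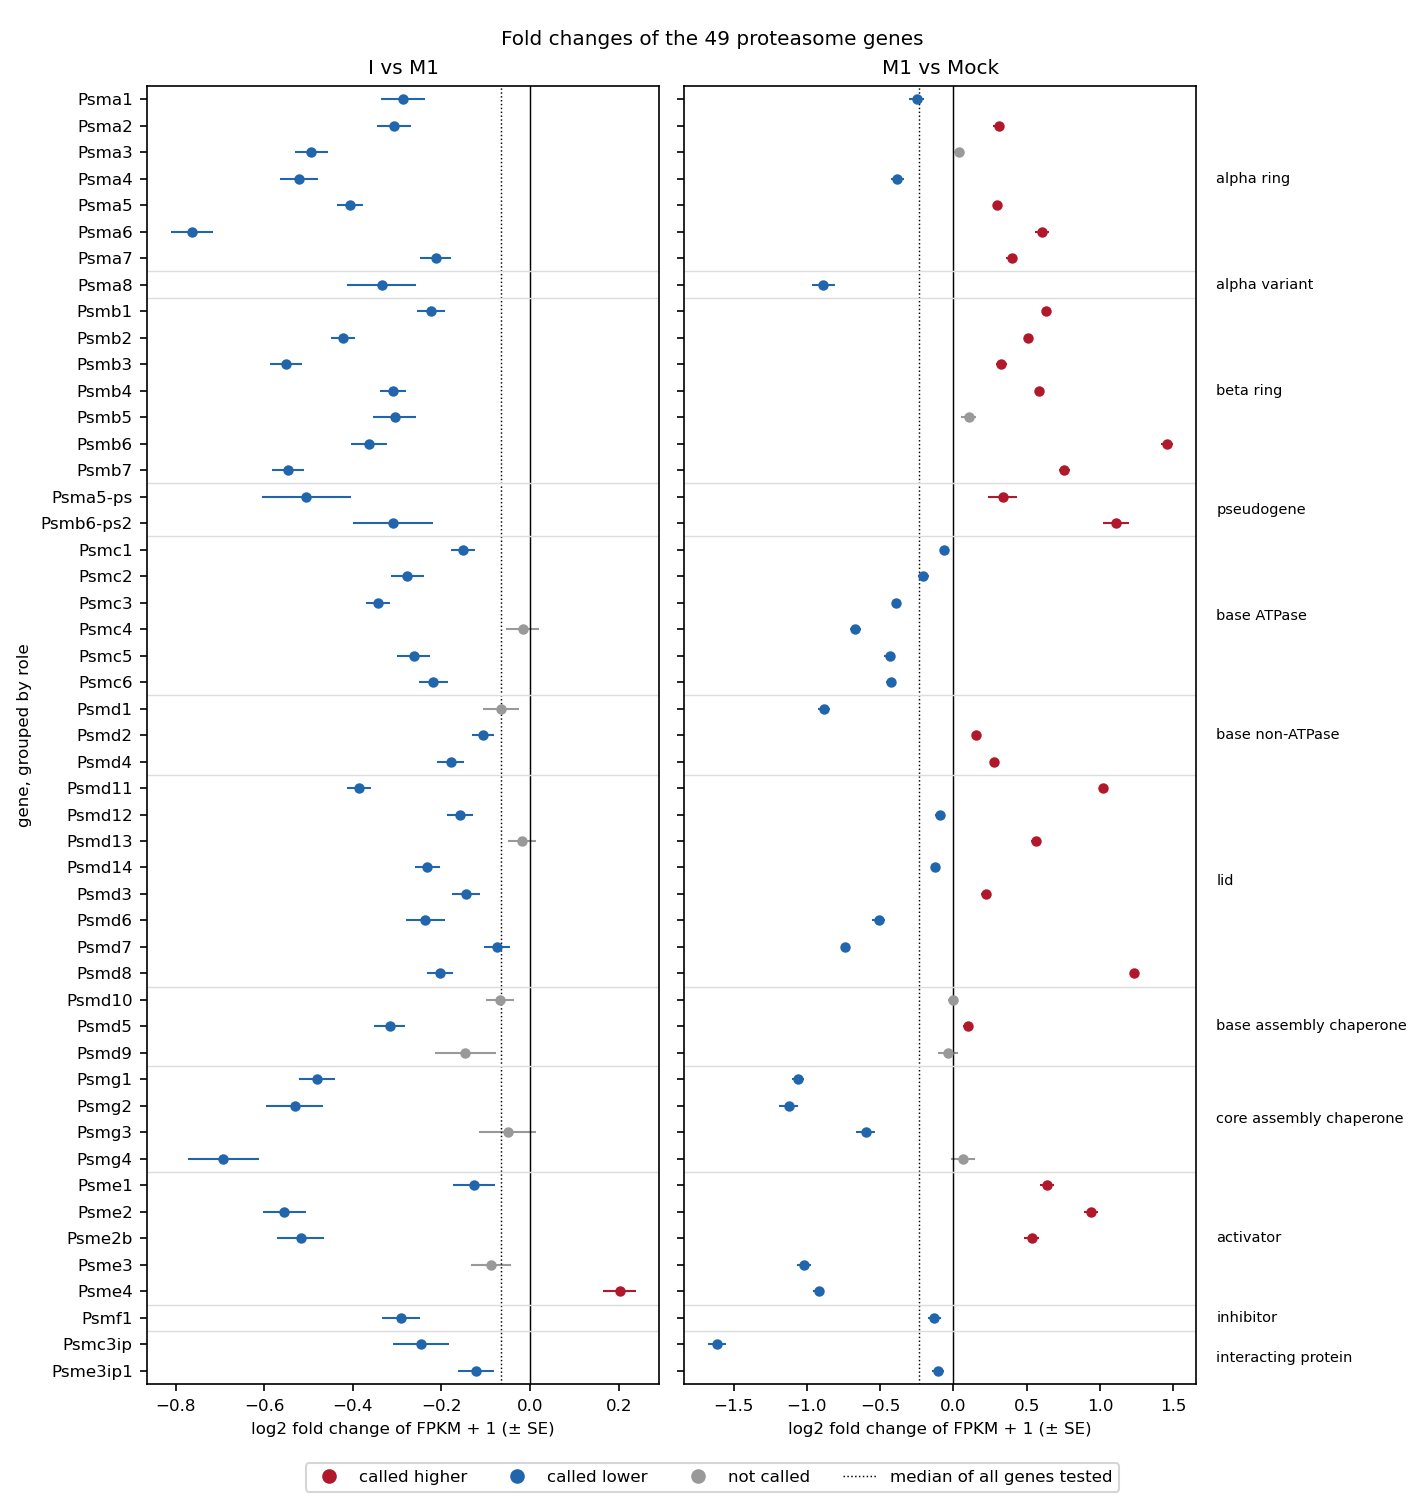
Log2 fold change of FPKM + 1 with its standard error for each of the 49 genes (rows, grouped by role), with I vs M1 on the left and M1 vs Mock on the right. Colours mark genes called higher, called lower or not called, and the dotted line is the median of all genes tested. In I vs M1 only Psme4 lies on the called higher side, while in M1 vs Mock the beta ring genes lie right of 0 and the ATPase genes left of it; RLE scaling turned Psmc1 and Psmc2 higher.

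The alpha ring genes (Psma1 to Psma7) moved both ways on polarization as deposited, and all fell with iodide. Of the 9 Psma rows, 5 rose, 3 fell and 1 (Psma3) was not called in M1 vs Mock. Among all genes tested 30.5% rose and 55.3% fell. RLE scaling gave 6 of the 9 Psma rows higher and 1 lower, beside 4810 higher and 4749 lower of all 11156 genes. With it 0 of Psma1 to Psma7 were lower, 5 were higher and 2 were not called. With iodide 9 of 9 fell relative to M1, with a median log2 fold change of -0.41, where 39.3% of all genes tested fell. In M1 cells the level ran from 31.8 FPKM for Psma3 to 189.7 FPKM for Psma5, a 5.96-fold range. These subunits stand in equal number in the ring. FPKM divides by summed exon length, 3894 bases for Psma3 and 1321 for Psma5, and the part of length in the range was not tested. Psma5, Psma2 and Psma7 rose by 0.30, 0.31 and 0.40 on the log2 scale in M1 cells, although quantile scaling put Psma5 at -0.040.

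Psma6 had the largest rise of the Psma genes as deposited and with RLE scaling, and the largest fall with iodide. It had 109, 94.4 and 104 FPKM in the I libraries, 175, 174 and 172 FPKM in the M1 libraries and 108, 117 and 117 FPKM in the Mock libraries. The M1 libraries were the highest and did not overlap either other group, while I and Mock overlapped. Psma6 rose by 0.60 ± 0.048 (adjusted p = 3.06e-07) in M1 vs Mock and fell by 0.76 ± 0.048 (adjusted p = 2.58e-07) in I vs M1, on the log2 scale with the standard error. Quantile scaling put its M1 vs Mock rise at 0.28, below Psma2 (0.34), Psma7 (0.33) and the pseudogene Psma5-ps (0.44).

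Psma1 and Psma4 were called against the majority of the Psma genes. Psma4, which lies at chr9:54950790-54958030 in the GRCm38 build, had 31.1, 31.1 and 31.9 FPKM in the I libraries, 48.2, 45.1 and 43.2 FPKM in the M1 libraries and 57.8, 62.9 and 58.2 FPKM in the Mock libraries. The 3 groups did not overlap, with I lowest and Mock highest. Psma4 fell by 0.38 ± 0.043 (adjusted p = 6.48e-06) in M1 vs Mock and fell by 0.52 ± 0.043 (adjusted p = 2.03e-06) in I vs M1, but the first call was lost with RLE scaling, at -0.086 (adjusted p = 0.082). Psma1 had 45.6, 49.7 and 42.1 FPKM in the I libraries, 57.3, 54.7 and 55.9 FPKM in the M1 libraries and 65.3, 68.4 and 66.6 FPKM in the Mock libraries. Its groups were in the same order without overlap. Psma1 fell by 0.25 ± 0.050 (adjusted p = 0.000631) in M1 vs Mock, which turned to 0.047 with RLE scaling, and fell by 0.29 ± 0.050 (adjusted p = 0.000465) in I vs M1.

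Psma8, the alpha subunit variant of germ cells, was low throughout. It had 1.91, 1.79 and 2.42 FPKM in the I libraries, 2.68, 3.15 and 2.64 FPKM in the M1 libraries and 6.17, 6.03 and 5.9997 FPKM in the Mock libraries. Mock libraries were highest, and no 2 groups overlapped. Psma8 fell by 0.89 ± 0.078 (adjusted p = 7.38e-07) in M1 vs Mock and fell by 0.33 ± 0.078 (adjusted p = 0.00326) in I vs M1. The pseudogene row Psma5-ps rose by 0.33 ± 0.10 (adjusted p = 0.00895) and fell by 0.50 ± 0.10 (adjusted p = 0.00121) in the same comparisons. It can share reads with Psma5, so both rows are uncertain by that share.

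**Figure D2:**
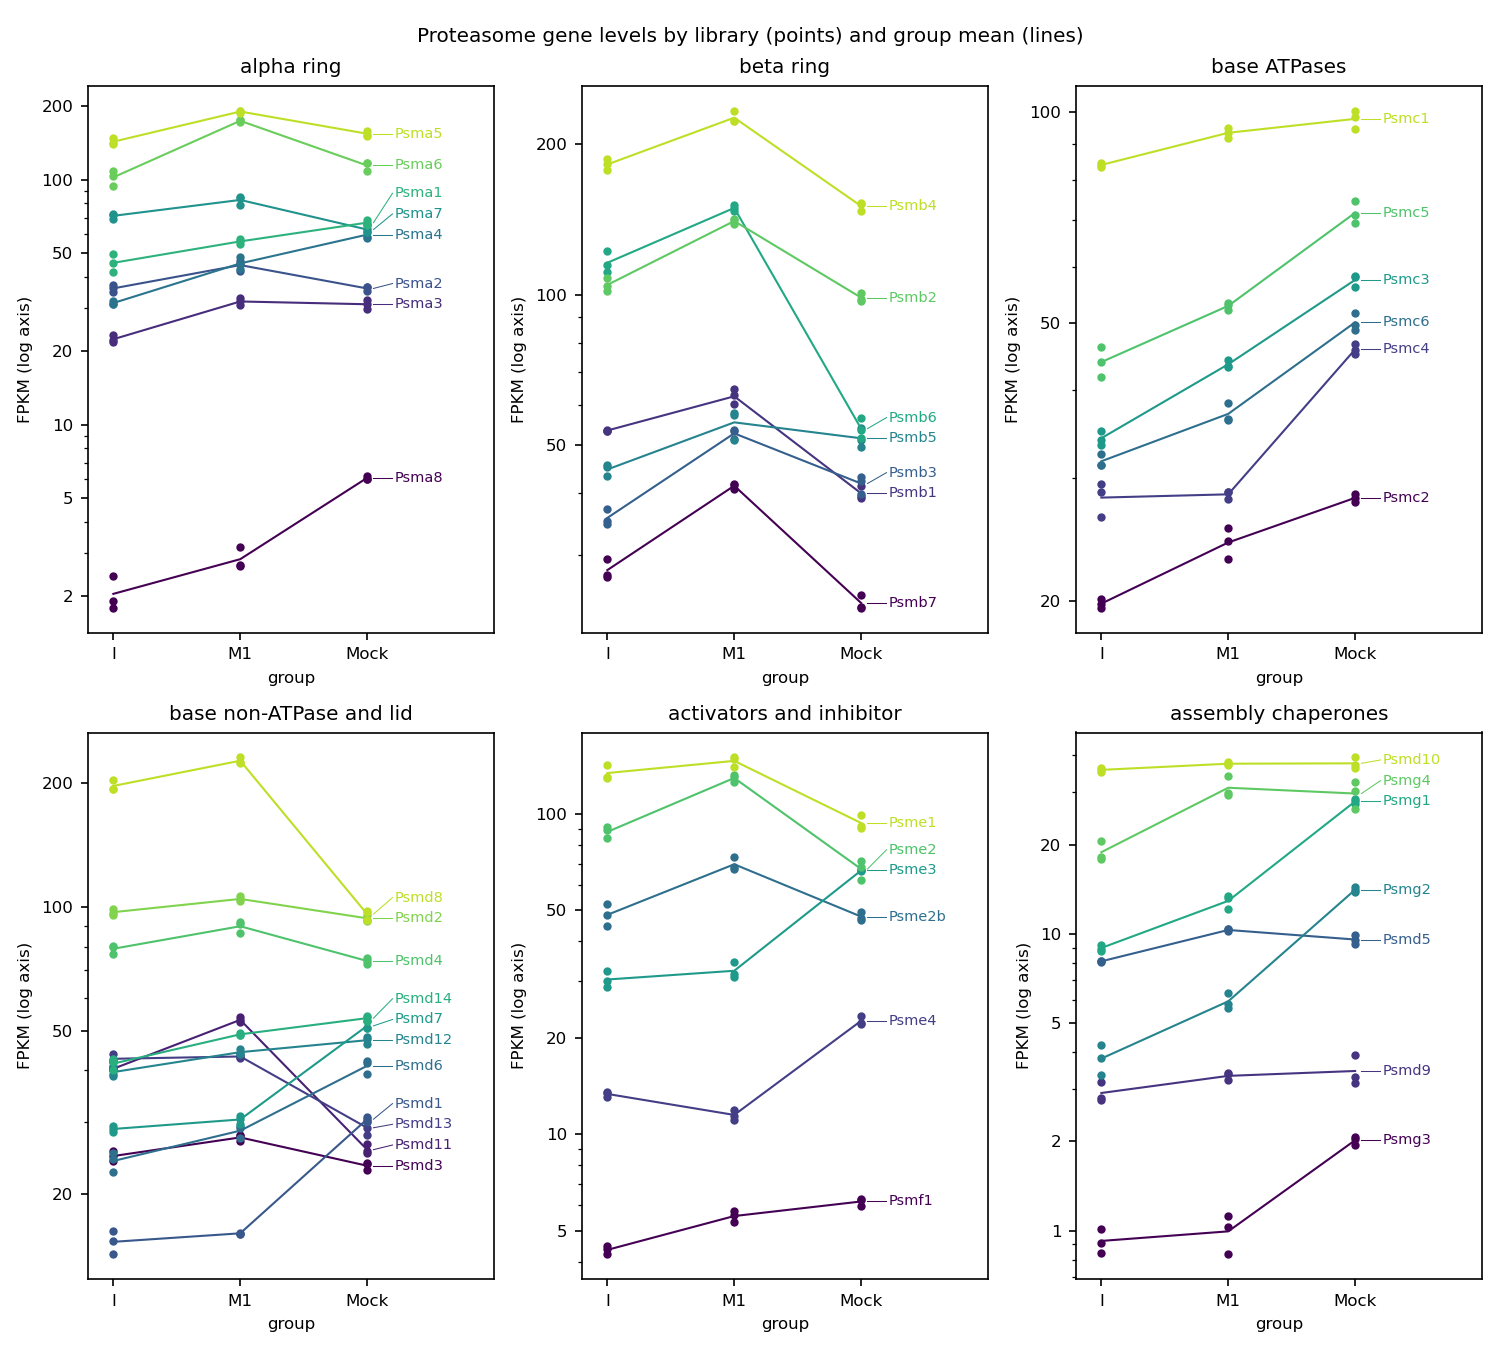
FPKM (log axis) of the subunit, activator, inhibitor and chaperone genes in I, M1 and Mock cells, with 1 point per library and lines through the group means. Psmb6, Psmd8 and Psmd11 stand higher in I and M1 than in Mock, whereas Psme3, Psme4, Psmg1 and Psmg2 stand lower in I and M1 than in Mock.

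Of the 7 beta ring genes (Psmb1 to Psmb7), 6 rose on polarization and all 7 fell with iodide. Psmb5 was not called in M1 vs Mock, and the median of the 7 was 0.59 on the log2 scale. With the pseudogene row Psmb6-ps2, 7 of 8 Psmb rows rose and 0 fell, where 30.5% of all genes tested rose and 55.3% fell. With RLE scaling 8 of 8 rose, beside 4810 of all 11156 genes. Relative to M1, 8 of 8 fell in I cells under the deposited, RLE and quantile scaling, with a median of -0.34 as deposited. Of all genes tested, 39.3% fell in that comparison as deposited, 3540 of 11156 with RLE and 3610 with quantile scaling. Psmb1, Psmb2 and Psmb4, structural subunits of the ring, rose by 0.63, 0.51 and 0.59 in M1 vs Mock and fell by 0.22, 0.42 and 0.31 in I vs M1.

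The catalytic subunits differed in how far they moved. Psmb6, the subunit that cuts after acidic residues, lies at chr11:70525367-70527858 on the plus strand. Psmb6 had 122, 111 and 114 FPKM in the I libraries, 147, 151 and 149 FPKM in the M1 libraries and 51.6, 53.4 and 56.6 FPKM in the Mock libraries. Every I and M1 library lay above every Mock library, and I lay between M1 and Mock without overlap. Psmb6 rose by 1.45 ± 0.041 (adjusted p = 4.28e-11) in M1 vs Mock and fell by 0.36 ± 0.041 (adjusted p = 2.01e-05) in I vs M1. The first was the largest rise of the 49 genes as deposited and with RLE scaling, while quantile scaling put the pseudogene Psmb6-ps2 higher (1.43 against 1.34).

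Psmb7, which cuts after basic residues, had 29.5, 27.5 and 27.2 FPKM in the I libraries, 40.8, 41.8 and 41.6 FPKM in the M1 libraries and 23.6, 25.04 and 23.7 FPKM in the Mock libraries. Again M1 was highest and no groups overlapped. Psmb7 rose by 0.76 ± 0.036 (adjusted p = 3.52e-09) in M1 vs Mock and fell by 0.55 ± 0.036 (adjusted p = 3.86e-07) in I vs M1. Its exons share 11.8% of their bases with Nek6 on the opposite strand, and the strand setting of the counting is not given in the sources used here.

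Psmb5, which cuts after hydrophobic residues and is the main target of bortezomib, had 45.5, 43.2 and 45.2 FPKM in the I libraries, 51.1, 57.4 and 57.9 FPKM in the M1 libraries and 51.2, 49.4 and 54.01 FPKM in the Mock libraries. M1 and Mock libraries overlapped, while the I libraries were below both. The M1 vs Mock difference was 0.10 ± 0.049, adjusted p = 0.0703. It was called without M1 replicate 1 (0.16, adjusted p = 0.00347) or Mock replicate 3 (0.14, adjusted p = 0.0317), and with RLE scaling, at 0.40. With iodide Psmb5 fell by 0.31 ± 0.049 (adjusted p = 0.000274) relative to M1. Psmb3, another structural subunit, had 35.3, 37.1 and 34.7 FPKM in the I libraries, 51.3, 53.3 and 53.5 FPKM in the M1 libraries and 39.9, 43.2 and 42.4 FPKM in the Mock libraries. The I libraries were lowest and M1 highest. Psmb3 rose by 0.33 ± 0.037 (adjusted p = 6.37e-06) in M1 vs Mock and fell by 0.55 ± 0.037 (adjusted p = 4.14e-07) in I vs M1. The pseudogene row Psmb6-ps2 rose by 1.11 ± 0.090 (adjusted p = 3.7e-07) and fell by 0.31 ± 0.090 (adjusted p = 0.0114). It can share reads with Psmb6, which makes the Psmb6 level uncertain by that share.

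Each catalytic subunit has an interferon-inducible counterpart, so their ratio within a library was compared. The ratio of Psmb9 to Psmb6 was 0.222 ± 0.012 in I, 0.253 ± 0.011 in M1 and 0.316 ± 0.011 in Mock cells (SD, n = 3). Psmb9 rose by 1.11 on the log2 scale in M1 vs Mock, less than Psmb6, and fell by 0.54 in I vs M1. The ratio of Psmb10 to Psmb7 was 2.41 ± 0.097 in I, 1.91 ± 0.11 in M1 and 3.02 ± 0.10 in Mock cells, and that of Psmb8 to Psmb5 was 0.558 ± 0.017 in I, 0.5004 ± 0.030 in M1 and 0.429 ± 0.014 in Mock cells. Psmb8 rose by 0.31 and Psmb10 differed by 0.11 (not called as deposited, called at 0.41 with RLE scaling) in M1 vs Mock. For all 3 ratios neither I and M1 nor M1 and Mock libraries overlapped. The exact two-sided permutation test gave p = 0.1 for each of these 6 differences, the smallest that 3 against 3 libraries allow. The M1 mean was below the Mock mean for the Psmb9 and Psmb10 ratios and above it for the Psmb8 ratio.

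**Figure D3:**
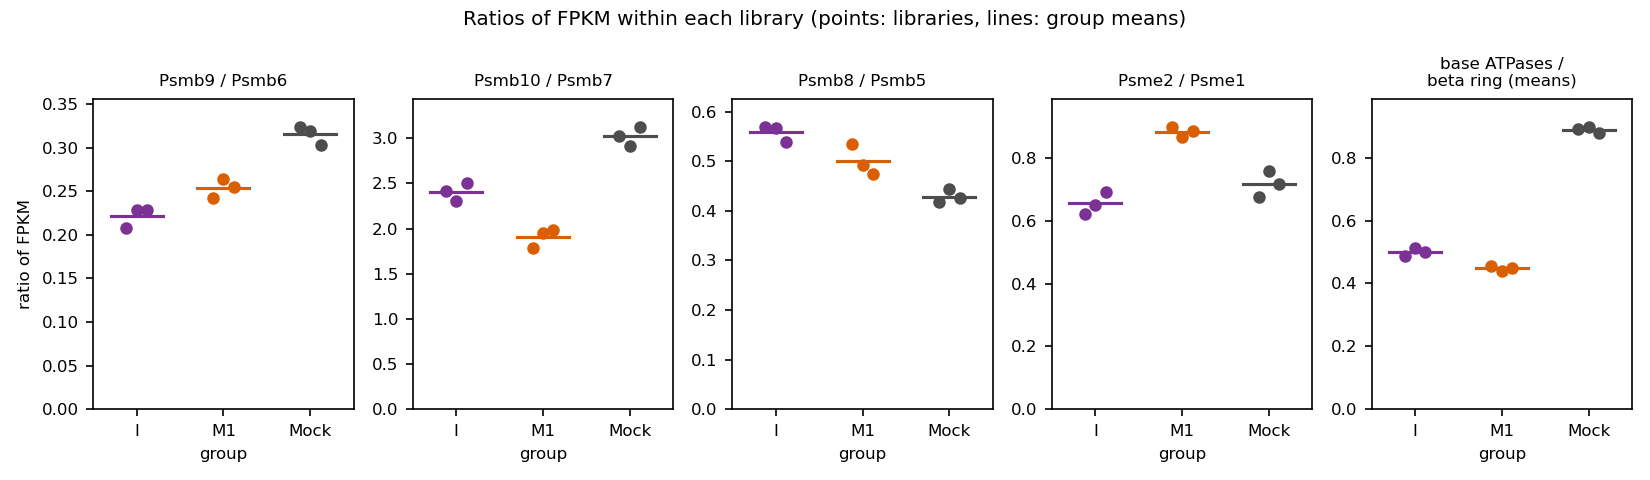
Ratios of FPKM within each library (vertical axes, all from 0) for I, M1 and Mock, with points for libraries and lines for group means. The first 3 panels set immunoproteasome genes over their constitutive counterparts. The ratio of Psme2 to Psme1 is highest in M1, and the mean of the base ATPases over the mean of the beta ring is 0.4996 in I and 0.448 in M1, against 0.890 in Mock.

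The base ATPase genes went the other way from the beta ring on polarization. Of 7 Psmc rows 7 fell in M1 vs Mock, with a median log2 fold change of -0.43, where 55.3% of all genes tested fell. Psmc3ip among them encodes no subunit, and the 6 ATPases alone had a median of -0.41. RLE scaling left 4 of the 6 lower, beside 4749 of all 11156 genes, and turned Psmc1 (0.23) and Psmc2 (0.085) higher. The mean of the 6 ATPases divided by the mean of the 7 beta ring genes, which a scale factor per library does not alter, was 0.4996 ± 0.013 in I, 0.448 ± 0.0080 in M1 and 0.8897 ± 0.0092 in Mock cells (SD, n = 3). The same ratio for the alpha ring over the beta ring was 0.8001 ± 0.0052 in I, 0.858 ± 0.024 in M1 and 1.14 ± 0.031 in Mock cells. Differences in these ratios of means were not tested.

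In I vs M1, where 39.3% of all genes tested fell, 6 of the 7 Psmc rows fell, 5 of them ATPases, and Psmc4 was not called. Psmc3, with the largest of these falls, had 35.04, 34.01 and 33.4 FPKM in the I libraries, 43.2, 44.2 and 43.4 FPKM in the M1 libraries and 56.2, 58.1 and 58.3 FPKM in the Mock libraries. The groups did not overlap, with I lowest. Psmc3 fell by 0.39 ± 0.027 (adjusted p = 8.85e-08) in M1 vs Mock and fell by 0.34 ± 0.027 (adjusted p = 1.48e-06) in I vs M1, and 8.25% of its exon bases lie under Slc39a13 on the opposite strand. Psmc4 had 28.6, 29.3 and 26.3 FPKM in the I libraries, 27.9, 28.6 and 28.7 FPKM in the M1 libraries and 45.7, 45.1 and 46.5 FPKM in the Mock libraries. Its I and M1 libraries overlapped, and both lay below Mock. Psmc4 fell by 0.67 ± 0.038 (adjusted p = 1.39e-08) in M1 vs Mock, and its I vs M1 difference was -0.016 ± 0.038, adjusted p = 0.719, with the sign turned by RLE scaling (0.056) and quantile scaling (0.040) and without I replicate 3 (0.028).

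Psmc5 and Psmc6 fell by 0.43 and 0.43 in M1 vs Mock and by 0.26 and 0.22 in I vs M1. Psmc1, the ATPase gene with the highest FPKM in every group, had the smallest change in M1 vs Mock, -0.065 ± 0.027 (adjusted p = 0.0398), in libraries that overlapped. That call was lost without M1 replicate 1 (-0.053, adjusted p = 0.108), M1 replicate 3 (-0.066, adjusted p = 0.078), Mock replicate 2 (-0.046, adjusted p = 0.158) or Mock replicate 3 (-0.061, adjusted p = 0.0967). Psmc1 fell by 0.15 ± 0.027 (adjusted p = 0.00055) in I vs M1. The row Psmc3ip is no proteasome subunit: its protein acts in meiotic recombination. It had 0.441, 0.449 and 0.315 FPKM in the I libraries, 0.581, 0.755 and 0.6502 FPKM in the M1 libraries and 4.103, 4.26 and 3.897 FPKM in the Mock libraries. Mock was far above both other groups. Psmc3ip fell by 1.61 ± 0.062 (adjusted p = 5.64e-10) in M1 vs Mock and fell by 0.25 ± 0.062 (adjusted p = 0.00531) in I vs M1, with 21.2% of its exon bases under Mlx on the opposite strand.

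The Psmd genes, which hold the lid and the rest of the base, were divided on polarization. In M1 vs Mock 7 of 14 rose, 5 fell and 2 were not called, where 30.5% of all genes tested rose and 55.3% fell. RLE scaling gave 11 higher and 3 lower, beside 4810 and 4749 of all 11156 genes. With iodide 10 of 14 fell and 0 rose, where 39.3% of all genes fell and 24.9% rose. RLE and quantile scaling each left 7 lower, beside 3540 and 3610 of all genes. The median fall in I vs M1 was smaller on the deposited scale, at -0.15, than the -0.41 of Psma or the -0.34 of Psmb genes, a difference between lists that was not tested.

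Psmd8, Psmd11 and Psmd13 had the largest rises of the Psmd genes. Psmd8, a lid subunit needed for the last steps of lid assembly in yeast, lies at chr7:29174188-29180701. It had 203, 194 and 193 FPKM in the I libraries, 223, 231 and 225 FPKM in the M1 libraries and 92.9, 97.2 and 97.8 FPKM in the Mock libraries. I and M1 libraries lay far above Mock, with I below M1. Psmd8 rose by 1.23 ± 0.029 (adjusted p = 1.23e-11) in M1 vs Mock and fell by 0.20 ± 0.029 (adjusted p = 0.000127) in I vs M1. Psmd11, which clamps the lid to the alpha ring, lies at chr11:80428615-80473248. It had 40.7, 40.4 and 40.1 FPKM in the I libraries, 53.04, 52.3 and 53.9 FPKM in the M1 libraries and 25.1, 26.4 and 25.4 FPKM in the Mock libraries. Here the 3 groups were again in the order M1, I and Mock from the top. Psmd11 rose by 1.02 ± 0.027 (adjusted p = 2.65e-11) in M1 vs Mock and fell by 0.39 ± 0.027 (adjusted p = 5.53e-07) in I vs M1, the largest fall of the Psmd genes.

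Psmd13 had 42.3, 43.8 and 41.9 FPKM in the I libraries, 43.1, 42.9 and 43.7 FPKM in the M1 libraries and 29.02, 30.1 and 27.9 FPKM in the Mock libraries. The I and M1 libraries overlapped, and both lay above Mock. Psmd13 rose by 0.56 ± 0.032 (adjusted p = 1.42e-08) in M1 vs Mock, and its I vs M1 difference was -0.019 ± 0.032, adjusted p = 0.621, or 0.055 with RLE scaling. The exons of Psmd13 share 10.1% of their bases with Sirt3 on the opposite strand.

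Psmd1, Psmd6, Psmd7, Psmd12 and Psmd14 fell in M1 cells, against the majority of the Psmd genes. Psmd1, a large scaffold subunit of the base, had 14.3, 16.3 and 15.4 FPKM in the I libraries, 16.03, 16.04 and 16.1 FPKM in the M1 libraries and 30.5, 29.96 and 30.9 FPKM in the Mock libraries. The I and M1 libraries overlapped well below Mock. Psmd1 fell by 0.88 ± 0.041 (adjusted p = 2.59e-09) in M1 vs Mock, the largest fall of the Psmd genes. Its I vs M1 difference was -0.066 ± 0.041, adjusted p = 0.177, which was called without I replicate 2 (-0.11, adjusted p = 0.0312). RLE scaling put that difference at 0.0041.

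Psmd14, the deubiquitinase that removes ubiquitin chains from substrates, had 42.7, 41.9 and 40.04 FPKM in the I libraries, 48.8, 49.3 and 48.7 FPKM in the M1 libraries and 53.9, 54.1 and 52.8 FPKM in the Mock libraries. The 3 groups did not overlap, with I lowest. Psmd14 fell by 0.13 ± 0.028 (adjusted p = 0.0013) in M1 vs Mock, which turned to 0.17 with RLE scaling, and fell by 0.23 ± 0.028 (adjusted p = 3.63e-05) in I vs M1. Psmd7, its partner in the lid, had 29.4, 28.3 and 28.8 FPKM in the I libraries, 30.5, 29.6 and 31.04 FPKM in the M1 libraries and 50.7, 50.6 and 52.7 FPKM in the Mock libraries. I and M1 were close to each other and far below Mock. Psmd7 fell by 0.74 ± 0.029 (adjusted p = 6.97e-10) in M1 vs Mock. In I vs M1 it fell by 0.074 ± 0.029 (adjusted p = 0.0449), a call that was lost without I replicate 2 (-0.062, adjusted p = 0.132), I replicate 3 (-0.073, adjusted p = 0.0943), M1 replicate 1 (-0.072, adjusted p = 0.0848) or M1 replicate 3 (-0.059, adjusted p = 0.145). RLE and quantile scaling lost it too, at -0.0017 and -0.017.

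Psmd6 and Psmd12 are further lid subunits. Psmd6 had 24.4, 22.6 and 25.2 FPKM in the I libraries, 29.3, 29.01 and 27.4 FPKM in the M1 libraries and 39.2, 42.2 and 41.7 FPKM in the Mock libraries. It fell by 0.51 ± 0.045 (adjusted p = 7.24e-07) in M1 vs Mock and fell by 0.24 ± 0.045 (adjusted p = 0.000858) in I vs M1, with no overlap of groups. Psmd12 had 39.2, 41.04 and 38.7 FPKM in the I libraries, 45.04, 44.1 and 43.8 FPKM in the M1 libraries and 46.3, 47.6 and 48.2 FPKM in the Mock libraries. Its groups lay close together but did not overlap. Psmd12 fell by 0.095 ± 0.030 (adjusted p = 0.0111) in M1 vs Mock and fell by 0.16 ± 0.030 (adjusted p = 0.00082) in I vs M1, while RLE scaling turned the first to 0.20 and quantile scaling lost its call, at -0.060 (adjusted p = 0.0781). Psmd2, Psmd3 and Psmd4, the last a ubiquitin receptor, rose by 0.16, 0.22 and 0.28 in M1 vs Mock, although quantile scaling put Psmd2 at -0.0049. They fell by 0.11, 0.14 and 0.18 in I vs M1, and with either other scaling the I vs M1 calls of Psmd2 and Psmd3 were lost.

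The promoters of Psmb6, Psmd8 and Psmd11, the subunit genes among the 49 with the largest rises in M1 vs Mock, and of Psme4, the only gene that rose with iodide, are shown for reference. Each is the 250 bases before the gene's start in RefSeq (GRCm38.p6), read 5′ to 3′ on the gene's strand, at chr11:70525107-70525356, plus strand, at chr7:29180674-29180923, minus strand, at chr11:80428365-80428614, plus strand and at chr11:30771525-30771774, plus strand. Capitals mark matches to the 4 motifs searched on both strands.
Psmb6: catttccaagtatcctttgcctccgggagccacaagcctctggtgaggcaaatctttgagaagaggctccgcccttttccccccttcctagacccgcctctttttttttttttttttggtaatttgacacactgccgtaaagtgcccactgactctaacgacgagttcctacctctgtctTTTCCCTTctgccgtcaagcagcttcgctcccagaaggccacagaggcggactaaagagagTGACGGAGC
Psmd8: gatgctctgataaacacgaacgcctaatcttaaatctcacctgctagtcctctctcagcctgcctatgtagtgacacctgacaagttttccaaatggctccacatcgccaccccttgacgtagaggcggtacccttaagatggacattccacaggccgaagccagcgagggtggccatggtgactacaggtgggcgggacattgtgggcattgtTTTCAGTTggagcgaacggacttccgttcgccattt
Psmd11: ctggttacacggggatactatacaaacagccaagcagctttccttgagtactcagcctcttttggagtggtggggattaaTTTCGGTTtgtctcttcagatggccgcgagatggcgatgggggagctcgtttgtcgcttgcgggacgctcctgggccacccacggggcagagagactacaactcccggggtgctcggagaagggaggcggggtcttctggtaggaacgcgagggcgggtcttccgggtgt
Psme4: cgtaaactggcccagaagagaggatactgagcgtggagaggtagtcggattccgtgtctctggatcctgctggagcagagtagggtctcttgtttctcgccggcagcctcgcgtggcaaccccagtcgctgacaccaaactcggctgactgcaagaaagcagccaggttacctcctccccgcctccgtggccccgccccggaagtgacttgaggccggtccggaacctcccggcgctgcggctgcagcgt
The capitals nearest the start in Psmb6, with their first base at -9, match the core of the antioxidant response element, TGACNNNGC, which factors such as Nfe2l1 and Nfe2l2 are known to bind. The other capitals, in Psmb6, Psmd8 and Psmd11, match AANNGAAA on the opposite strand, the core bound by interferon regulatory factors. Psme4 held none of the 4 motifs in this window. RefSeq windows were held for 39 of the 49 genes. The antioxidant core was in 5 of the 39 (12.8%, namely Psmb5, Psmb6, Psmc6, Psmd12 and Psmd9), against 11.5% of the windows of 27025 genes. The CCAAT box, bound by NF-Y, was in 14 (35.9%), against 37.5%. AANNGAAA was in 10 (25.6%), against 23.9%. The interferon-stimulated response element, searched as 2 copies of GAAA with 2 bases between them, each match of which also holds AANNGAAA, was in 3 (7.69%, Psmb3, Psmd4 and Psmd9), against 3.46%. AANNGAAA was added after the matches of this longer element had been counted. A match is a description of the letters, and overlapping matches of different motifs were each counted.

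Of the genes for assembly of the core, Psmg1 and Psmg2 fell in both comparisons. Psmg1 to Psmg4 code for chaperones that assemble the alpha ring. Of the 4, 3 fell in M1 vs Mock and 3 in I vs M1, where 55.3% and 39.3% of all genes tested fell. Psmg1 and Psmg2 form a dimer that holds the first alpha subunits. Psmg1 had 9.19, 8.79 and 8.93 FPKM in the I libraries, 12.1, 13.4 and 13.2 FPKM in the M1 libraries and 28.5, 27.3 and 28.1 FPKM in the Mock libraries. Psmg2 had 4.23, 3.35 and 3.83 FPKM in the I libraries, 6.33, 5.63 and 5.83 FPKM in the M1 libraries and 14.4, 13.9 and 14.1 FPKM in the Mock libraries. Both were highest in Mock and lowest in I, with no overlap between groups. Psmg1 fell by 1.06 ± 0.041 (adjusted p = 5.5e-10) in M1 vs Mock and fell by 0.48 ± 0.041 (adjusted p = 2.41e-06) in I vs M1. Psmg2 fell by 1.12 ± 0.065 (adjusted p = 1.7e-08) in M1 vs Mock and fell by 0.53 ± 0.065 (adjusted p = 3.52e-05) in I vs M1.

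Psmg3 and Psmg4 form the other dimer, and they moved differently from each other. Psmg3, the lowest of the 4, had 0.913, 1.02 and 0.845 FPKM in the I libraries, 0.834, 1.12 and 1.03 FPKM in the M1 libraries and 2.06, 2.04 and 1.95 FPKM in the Mock libraries. I and M1 overlapped below Mock. Psmg3 fell by 0.60 ± 0.064 (adjusted p = 4.24e-06) in M1 vs Mock, and its I vs M1 difference was -0.051 ± 0.064, adjusted p = 0.509. Its exons share 9.68% of their bases with Gm26938 on the same strand. Psmg4 had 20.6, 17.9 and 18.2 FPKM in the I libraries, 29.8, 29.4 and 34.1 FPKM in the M1 libraries and 32.5, 26.4 and 30.4 FPKM in the Mock libraries. M1 and Mock overlapped, and the I libraries lay below both. The M1 vs Mock difference of Psmg4 was 0.065 ± 0.080, adjusted p = 0.461, and RLE scaling called it higher at 0.36, while its sign turned without M1 replicate 3 (-0.00083) or Mock replicate 2 (-0.016). In I vs M1 it fell by 0.69 ± 0.080 (adjusted p = 2.57e-05).

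Psmd5, Psmd9 and Psmd10 help assemble the ATPases of the base, and in M1 vs Mock only Psmd5 was called. Psmd5 had 8.102, 8.04 and 8.12 FPKM in the I libraries, 10.4, 10.4 and 10.2 FPKM in the M1 libraries and 9.57, 9.92 and 9.25 FPKM in the Mock libraries. The I libraries were lowest, and no groups overlapped. Psmd5 rose by 0.098 ± 0.035 (adjusted p = 0.0219) in M1 vs Mock, a call that was lost without M1 replicate 2 (0.093, adjusted p = 0.0551), Mock replicate 1 (0.097, adjusted p = 0.0527) or Mock replicate 3 (0.075, adjusted p = 0.0949), and fell by 0.32 ± 0.035 (adjusted p = 1.74e-05) in I vs M1. Psmd10, also known as gankyrin, had 36.3, 35.2 and 35.6 FPKM in the I libraries, 37.9, 37.4 and 37.01 FPKM in the M1 libraries and 37.04, 36.3 and 39.4 FPKM in the Mock libraries. Its M1 and Mock libraries overlapped, and the I libraries lay just below the M1 ones. Its differences were -0.0033 ± 0.032 (adjusted p = 0.927) in M1 vs Mock and -0.067 ± 0.032 (adjusted p = 0.0892) in I vs M1, neither called. RLE scaling turned them to 0.29 and 0.0057.

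Psmd9 had 3.18, 2.81 and 2.75 FPKM in the I libraries, 3.21, 3.38 and 3.39 FPKM in the M1 libraries and 3.304, 3.15 and 3.91 FPKM in the Mock libraries. Its M1 and Mock libraries overlapped. The differences were -0.039 ± 0.069 (adjusted p = 0.607) in M1 vs Mock, turned to 0.19 by RLE and 0.36 by quantile scaling, and -0.15 ± 0.069 (adjusted p = 0.0842) in I vs M1. The I vs M1 difference was called without I replicate 1 (-0.19, adjusted p = 0.0409). Its exons share 25.5% of their bases with Gm26745 on the opposite strand.

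The activators split into 2 sets. The interferon-inducible cytosolic pair Psme1 and Psme2, which form a mixed ring on the core and favour peptide release, rose in M1 cells. The nuclear activator Psme3 and the large activator Psme4 fell. Of the 6 Psme rows 3 rose and 3 fell in M1 vs Mock, where 30.5% of all genes tested rose and 55.3% fell. In I vs M1 1 rose, 4 fell and 1 was not called, where 24.9% of all genes rose and 39.3% fell. These rows include Psme3ip1, which is no activator and fell in both comparisons. RLE and quantile scaling each left 2 of the 6 rows lower in I vs M1, beside 3540 and 3610 of all 11156 genes.

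Psme1 had 143, 129 and 131 FPKM in the I libraries, 141, 150.4 and 149 FPKM in the M1 libraries and 91.6, 90.2 and 99.5 FPKM in the Mock libraries. I and M1 overlapped, and both lay above Mock. Psme1 rose by 0.64 ± 0.047 (adjusted p = 1.54e-07) in M1 vs Mock. In I vs M1 it fell by 0.13 ± 0.047 (adjusted p = 0.0366), a call that was lost without I replicate 2 (-0.10, adjusted p = 0.122), I replicate 3 (-0.11, adjusted p = 0.111), M1 replicate 2 (-0.11, adjusted p = 0.113) or M1 replicate 3 (-0.11, adjusted p = 0.0994). RLE and quantile scaling lost it too, at -0.052 and -0.066. Psme2 had 88.9, 84.3 and 90.8 FPKM in the I libraries, 126, 130.4 and 132 FPKM in the M1 libraries and 62.1, 68.5 and 71.5 FPKM in the Mock libraries. Its groups did not overlap, with M1 highest. Psme2 rose by 0.94 ± 0.048 (adjusted p = 5.97e-09) in M1 vs Mock and fell by 0.55 ± 0.048 (adjusted p = 2.74e-06) in I vs M1.

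The ratio of Psme2 to Psme1 within a library was 0.656 ± 0.035 in I, 0.885 ± 0.017 in M1 and 0.718 ± 0.041 in Mock cells (SD, n = 3). M1 overlapped neither I nor Mock, and the exact two-sided permutation test gave p = 0.1 for I vs M1 and for M1 vs Mock, the smallest possible. Psme2b, an intronless copy of Psme2 in the mouse that can share its reads, had 52.3, 44.7 and 48.4 FPKM in the I libraries, 67.6, 68.1 and 73.4 FPKM in the M1 libraries and 47.3, 46.8 and 49.4 FPKM in the Mock libraries. Its I and Mock libraries overlapped, and M1 lay above both. Psme2b rose by 0.53 ± 0.053 (adjusted p = 2e-06) in M1 vs Mock and fell by 0.52 ± 0.053 (adjusted p = 9.37e-06) in I vs M1.

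Psme3, at chr11:101316213-101323537, had 30.2, 32.3 and 28.8 FPKM in the I libraries, 31.6, 34.5 and 31.1 FPKM in the M1 libraries and 66.7, 67.1 and 66.2 FPKM in the Mock libraries. I and M1 overlapped, and both lay far below Mock. Psme3 fell by 1.02 ± 0.046 (adjusted p = 2e-09) in M1 vs Mock. The I vs M1 difference was -0.088 ± 0.046, adjusted p = 0.116, and it was called without I replicate 2 (-0.13, adjusted p = 0.0267). The ratio of Psme3 to Psme1 was 0.227 ± 0.020 in I, 0.221 ± 0.011 in M1 and 0.712 ± 0.042 in Mock cells. I and M1 overlapped in it (exact two-sided permutation p = 0.8), whereas M1 lay below Mock (p = 0.1, exact).

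Psme4, whose product caps the core and acts on acetylated histones in the testis, lies at chr11:30771726-30880361. It had 13.5, 13.6 and 13.1 FPKM in the I libraries, 11.9, 11.4 and 11.1 FPKM in the M1 libraries and 22.1, 23.4 and 22.3 FPKM in the Mock libraries. Every I library lay above every M1 library, and both groups lay below Mock. Psme4 fell by 0.92 ± 0.037 (adjusted p = 7.21e-10) in M1 vs Mock and rose by 0.20 ± 0.037 (adjusted p = 0.000635) in I vs M1. It remained the only gene called higher in I vs M1 under RLE and quantile scaling, at 0.27 and 0.24.

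**Figure D4:**
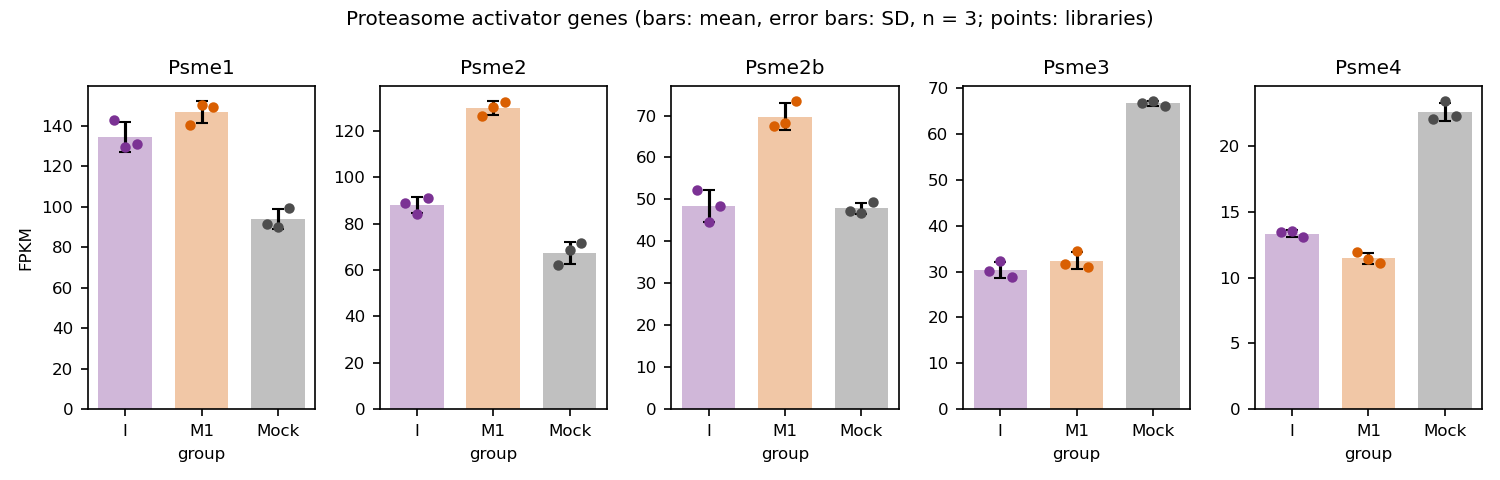
FPKM of the 5 activator genes in I, M1 and Mock cells, with bars for the mean, error bars for the SD (n = 3) and points for libraries. Psme1 and Psme2 are higher in I and M1 than in Mock, Psme3 and Psme4 lower, and Psme4 averages 13.4 FPKM in I, 11.5 FPKM in M1 and 22.6 FPKM in Mock.

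Psmf1, which inhibits the core in vitro, had 4.47, 4.22 and 4.37 FPKM in the I libraries, 5.59, 5.74 and 5.32 FPKM in the M1 libraries and 5.99, 6.297 and 6.21 FPKM in the Mock libraries. The groups did not overlap, with I lowest. Psmf1 fell by 0.13 ± 0.043 (adjusted p = 0.0153) in M1 vs Mock and fell by 0.29 ± 0.043 (adjusted p = 0.00015) in I vs M1. RLE and quantile scaling turned the first to 0.13 and 0.20, and it was lost without M1 replicate 3 (-0.10, adjusted p = 0.0615) or Mock replicate 2 (-0.12, adjusted p = 0.0547). Psme3ip1, whose protein binds Psme3, had 10.2, 10.1 and 10.5 FPKM in the I libraries, 11.6, 11.5 and 10.6 FPKM in the M1 libraries and 11.8, 12.3 and 12.4 FPKM in the Mock libraries. The groups were close but did not overlap. It fell by 0.10 ± 0.040 (adjusted p = 0.0301) in M1 vs Mock, which RLE and quantile scaling turned to 0.17 and 0.12. The call was lost without M1 replicate 3 (-0.066, adjusted p = 0.129), Mock replicate 2 (-0.097, adjusted p = 0.0791) or Mock replicate 3 (-0.092, adjusted p = 0.0896). In I vs M1 it fell by 0.12 ± 0.040 (adjusted p = 0.0198), lost without I replicate 2 (-0.11, adjusted p = 0.059), M1 replicate 1 (-0.10, adjusted p = 0.0669) or M1 replicate 2 (-0.11, adjusted p = 0.0677). RLE and quantile scaling lost that call too, at -0.054 and -0.073.

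Cells polarized with iodide were also set against Mock cells. In I vs Mock 14 of the 49 genes were higher and 30 lower, where 28.2% of all genes tested were higher and 58.6% lower (86.8% called). RLE scaling gave 26 higher and 20 lower, beside 4762 higher and 4785 lower over all genes. In I vs Mock 41 of the 49 genes moved by more than 1.5 times or changed sign with RLE scaling, and 22 with quantile scaling. Genes called lower as deposited and higher with RLE scaling include Psmb3 (-0.22 to 0.14) and Psmb5 (-0.20 to 0.17). Psmb6, Psmd8 and Psmd11 stayed above Mock, by 1.09 ± 0.041 (adjusted p = 3.92e-10), 1.03 ± 0.029 (adjusted p = 4.12e-11) and 0.63 ± 0.027 (adjusted p = 1.12e-09). Psme1 was higher by 0.51 and Psme2 by 0.38. Apart from Psmc3ip, the chaperones Psmg2 and Psmg1 lay furthest below Mock, at -1.66 ± 0.065 (adjusted p = 5.39e-10) for Psmg2 and -1.54 ± 0.041 (adjusted p = 2.26e-11) for Psmg1. Psme3 was at -1.11 and Psma4 at -0.90. This comparison shares its libraries with both others.

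Around the proteasome, 31 other genes of ubiquitin handling and proteasome control were measured of 32 listed, and Paaf1 was not analysed here. In M1 vs Mock 12 rose, 16 fell and 3 were not called, and in I vs M1 8 rose, 18 fell and 5 were not called. Of all genes tested 30.5% rose and 55.3% fell in M1 vs Mock, and 24.9% rose and 39.3% fell in I vs M1. RLE scaling gave 16 of the 31 higher and 13 lower in M1 vs Mock, beside 4810 higher and 4749 lower over all genes. In I vs M1 it gave 10 higher and 13 lower, beside 3478 and 3540 over all genes. The median log2 fold change of the 31 in M1 vs Mock was -0.19 as deposited and 0.11 with RLE scaling. In I vs M1 it was -0.18 as deposited and -0.11 with RLE scaling. Ubb, a polyubiquitin gene, rose by 0.78 in M1 vs Mock and fell by 0.25 in I vs M1. Rps27a, which encodes ubiquitin fused to a ribosomal protein, rose by 0.61 in M1 vs Mock and fell by 0.48 in I vs M1, and quantile scaling lost its M1 vs Mock call.

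The core maturation factor Pomp and the small lid subunit Sem1 rose in M1 cells and fell with iodide. Pomp had 23.2, 19.4 and 21.8 FPKM in the I libraries, 27.4, 28.5 and 27.8 FPKM in the M1 libraries and 18.5, 18.7 and 19.4 FPKM in the Mock libraries. Sem1 had 23.04, 20.1 and 21.8 FPKM in the I libraries, 29.03, 31.6 and 30.8 FPKM in the M1 libraries and 13.4, 14.5 and 15.5 FPKM in the Mock libraries. M1 was highest in both, and I overlapped Mock for Pomp but lay above it for Sem1. Pomp rose by 0.54 ± 0.053 (adjusted p = 2.01e-06) in M1 vs Mock and fell by 0.37 ± 0.053 (adjusted p = 0.000131) in I vs M1. Sem1 rose by 1.03 ± 0.058 (adjusted p = 1.53e-08) and fell by 0.48 ± 0.058 (adjusted p = 3.7e-05).

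Of the 8 proteasome partners measured, Pomp and Sem1 rose, 5 fell and 1 was not called in M1 vs Mock, where 55.3% of all genes tested fell. In I vs M1 5 of the 8 fell, 2 rose (Ube3c and Ecpas) and 1 was not called. Of all genes tested 39.3% fell and 24.9% rose in I vs M1. Usp14, a deubiquitinase bound to the base, fell by 0.94, the ubiquitin receptor Adrm1 by 0.59 and its partner Uchl5 by 0.78 in M1 vs Mock. Ube3c, a ubiquitin ligase on the proteasome, fell by 0.58 ± 0.045 (adjusted p = 2.43e-07) in M1 vs Mock and rose by 0.19 ± 0.045 (adjusted p = 0.00401) in I vs M1. Ecpas, a scaffold that tethers the regulatory particle to the core, fell by 0.76 ± 0.037 (adjusted p = 3.96e-09) and rose by 0.42 ± 0.037 (adjusted p = 3.12e-06). Ecpas had 21.5, 23.4 and 22.2 FPKM in the I libraries, 17.1, 16.2 and 15.98 FPKM in the M1 libraries and 28.8, 28.6 and 28.2 FPKM in the Mock libraries. Like Psme4, it lay higher in every I than in every M1 library and below Mock in both.

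All 6 shuttle factors, which carry ubiquitinated proteins to the proteasome, fell in M1 vs Mock, where 55.3% of all genes tested fell. RLE scaling left 5 of the 6 lower, beside 4749 of all 11156 genes. Ubqln4 fell by 1.37 and Ubqln2 by 1.32. The unfolding ATPase Vcp fell by 1.23 ± 0.030 (adjusted p = 1.61e-11) in M1 vs Mock and fell by 0.14 ± 0.030 (adjusted p = 0.00198) in I vs M1, the second call being lost with RLE scaling (-0.069). Nfe2l1, the factor that raises proteasome genes when the proteasome is inhibited, rose by 0.13 ± 0.025 (adjusted p = 0.000522) in M1 vs Mock and fell by 0.32 ± 0.025 (adjusted p = 1.24e-06) in I vs M1. The M1 vs Mock call of Nfe2l1 was lost with quantile scaling (0.026). Its relative Nfe2l2, known for oxidative stress genes, fell by 1.59 ± 0.037 (adjusted p = 1.03e-11) in M1 vs Mock. With iodide Nfe2l2 rose by 0.11 ± 0.037 (adjusted p = 0.0254), a call that was lost without I replicate 1 (0.099, adjusted p = 0.0688), I replicate 2 (0.099, adjusted p = 0.0711) or M1 replicate 3 (0.098, adjusted p = 0.0732). Zfand2a, an arsenite-induced partner of the regulatory particle, rose by 1.32 ± 0.030 (adjusted p = 8.92e-12) in M1 vs Mock.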

How the data were processed

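Poly(A) RNA of 9 libraries was sequenced, per the labels' protocols. The deposited values are FPKM, read as such from the values, since no header names the unit. Per the submitters' processing notes, fastp 0.20.1, HISAT2 2.2.1, featureCounts 2.0.1 (Subread) and the GRCm38 build were used. The settings, strand use and annotation behind the counts are not given in the sources used. FPKM times the summed exon length (GENCODE vM21, 99.2% of 12474 rows matched) gave whole fragments within 0.05 in 98.3% to 98.5% of values per library. On a gene of 1 kb, 1 fragment is worth 0.0393 to 0.0574 FPKM. Overlaps with other genes are of exons in that annotation. Replicate libraries correlated at 0.997 (Pearson's r of log2 values), and none appeared to be deposited 2 times.

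From the FPKM, limma 3.58.1 (R 4.3.3) was run on log2(FPKM + 1), for the 11156 rows that reached 0.5 FPKM in 3 or more libraries, 1318 rows being below. 1 model with a term per group was fitted to all 9 libraries, with an intensity trend, and p-values were Benjamini-Hochberg adjusted over all rows tested and called under 0.05. It was also run on simulated data with few changed genes, as many up as down, which cannot test the scaling between libraries. Ratios between single genes used an exact permutation test over libraries, ratios of means over several genes were not tested, and FPKM means carry the SD. Values per library are given for the catalytic subunits, all Psme and Psmf genes, Psmd14, the assembly chaperones, the largest changes of each subcomplex and genes called against its majority. Psmc4, Psmd13, Pomp, Sem1 and Ecpas were added after their values were seen. The genes, lists and motifs were chosen with earlier results of these data known. The alternatives were a pseudocount of 0.1, no filter, a mean FPKM of at least 1, RLE and quantile scaling, a fit to 2 groups only, limma-voom on recovered fragments, a replicate block, and leaving out each library. Promoter windows and sequences are from RefSeq (GRCm38.p6). Genes at 0 in a library were not analysed here. A further motif, and the values of some genes counted in the ubiquitin list, are not reported here.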

Additional observations from a re-analysis of the deposited data

How the results depend on the processing

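The pseudocount of 0.1, no filter and a mean FPKM of at least 1 left every count of the 49 genes as reported. RLE scaling lowered the count lower in M1 vs Mock to 14 and raised the count higher in I vs Mock to 26. In M1 vs Mock RLE scaling reversed Psma1 to 0.047, Psmc1 to 0.23, Psmc2 to 0.085, Psmd9 to 0.19, Psmd10 to 0.29, Psmd12 to 0.20, Psmd14 to 0.17, Psme3ip1 to 0.17 and Psmf1 to 0.13. Quantile scaling reversed Psma5 to -0.040, Psmd2 to -0.0049, Psmd9 to 0.36, Psmd10 to 0.026, Psme3ip1 to 0.12 and Psmf1 to 0.20. In I vs M1, among differences not called, RLE scaling reversed Psmc4 to 0.056, Psmd1 to 0.0041, Psmd10 to 0.0057 and Psmd13 to 0.055, and quantile scaling reversed Psmc4 to 0.040 and Psmd13 to 0.054. The cause of these reversals was not tested. The fit to 2 groups only gave 22 higher and 21 lower in M1 vs Mock, and limma-voom 22 and 20. Both lost the calls of Psmc1 in M1 vs Mock and of Psmd7 in I vs M1, and limma-voom also that of Psme3ip1 in M1 vs Mock, while it called Psmd9 lower in I vs M1 (-0.19, adjusted p = 0.0299). Limma-voom put Psmc3ip at -2.60 in M1 vs Mock and -0.71 in I vs M1 and Psmg3 at -1.02 in M1 vs Mock, and the pseudocount of 0.1 put them at -2.46, -0.61 and -0.96. Leaving out a library gave 21 to 23 genes higher and 19 to 22 lower in M1 vs Mock, 1 higher and 39 to 42 lower in I vs M1, and 12 to 14 higher and 29 to 31 lower in I vs Mock. Among uncalled genes the sign turned in that range for Psmd10 (-0.027 to 0.030), Psmd9 (-0.088 to 0.033) and Psmg4 (-0.016 to 0.13) in M1 vs Mock and for Psmc4 (-0.047 to 0.028) in I vs M1. The replicate numbers did not pair the libraries: deviations of same-numbered libraries correlated at -0.115 to 0.0474. With the replicate block 22 genes were higher and 21 lower in M1 vs Mock, 1 higher and 41 lower in I vs M1, and 14 higher and 30 lower in I vs Mock. The block lost the M1 vs Mock call of Psme3ip1 (-0.10, adjusted p = 0.0528) and the I vs M1 call of Psme1 (-0.13, adjusted p = 0.0536), and it called Psme3 lower in I vs M1 (-0.088, adjusted p = 0.0487). Depth limits Psmc3ip, with 11 fragments in its shallowest library, and Psmg3 the most.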
